A study of Mus musculus with 8 samples.

Results

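The tumour necrosis factor (TNF) superfamily ligands through which helper T cells signal to other cells were followed in mouse CD4 T cells, 8 genes in all: Cd40lg, Tnfsf8, Tnfsf11, Tnfsf14, Tnf, Lta, Ltb and Fasl. They were chosen by gene symbol. All 8 were found among the 14042 genes measured in every library. The groups, of 2 RNA sequencing libraries each, were TFH KO, TFH WT, naive KO and naive WT. TFH KO and TFH WT were donor CD4 cells sorted as CXCR5+ and PD1 high from (bxd)F1 spleens on day 7, each host having been given 10000000 donor splenocytes without CD8 cells. The donors lacked the complement receptor C5aR1 (C5aR1-/-) in TFH KO and were wild type in TFH WT. Naive KO and naive WT were CD4 cells sorted as CD62L high and CD44 low, from C5aR1-/- and wild-type mice. No F1 host is named for the naive cells, so the sorted cell state and the transfer cannot be told apart in any comparison of TFH with naive cells. The sources used here do not give mouse age or sex, or say whether replicate libraries are separate animals. The p-values below thus reflect only the spread among these libraries. That spread may be technical except in naive KO, whose libraries differed in sex-linked genes, as given below.

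TNF superfamily ligands are made as trimeric membrane proteins, some of which are also shed, and they act on TNF receptor superfamily members of neighbouring cells. CD40 ligand gives B cells the contact signal on which germinal centres depend. Lymphotoxin, built from the products of Lta and Ltb, maintains the stromal and follicular dendritic cell networks of lymphoid tissue, whereas Fas ligand triggers death of cells that carry Fas. T cell receptor signalling is known to induce several of these genes, and AU-rich elements in the 3′ untranslated region (UTR) shorten the life of Tnf mRNA.

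All values below are the deposited log2 expression values. Differences are between group means on that log2 scale, first-named group minus second, with their standard error (SE) and n = 2 libraries per group. The test was limma's moderated test across all 14042 genes. A gene counted as called when its Benjamini-Hochberg adjusted p was below 0.05. Depth is unknown, so no counting interval is given, and levels were compared between libraries but not between genes.

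Of the 8 ligands, 3 were called higher in TFH KO than in naive KO cells (Tnfsf8, Tnfsf11 and Tnf) and 2 were called lower (Tnfsf14 and Ltb). Over all genes 19.5% were called in that comparison, 9.12% higher and 10.4% lower. In TFH WT against naive WT cells Tnfsf8, Tnfsf11 and Tnf were again called higher, and Tnfsf14, Lta, Ltb and Fasl were called lower, beside 26.3% of all genes, 12.6% higher and 13.7% lower. The median size of the difference over the 8 ligands was 0.59 in KO and 0.81 in WT, beside 0.23 and 0.26 over all genes. No ligand was called between KO and WT in TFH cells, where 0% of all genes were called, or between KO and WT in naive cells, where 0.0712% were called.

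Of the ligands, 3 lie side by side on chromosome 17. Tnf was higher in every TFH library than in any naive library, whereas its neighbours Lta and Ltb were both lower. The start regions and 3′ elements of this cluster are therefore shown here. On mm10 (GRCm38) RefSeq places Ltb at chr17:35194507-35196305 on the plus strand, Tnf at chr17:35199367-35202007 on the minus strand and Lta at chr17:35203165-35205578 on the minus strand. Between Ltb and Tnf lie 3061 bases, between Tnf and Lta 1157 bases, and the 3 genes span 11072 bases. The promoter windows, from a RefSeq table on GRCm38.p6, run from 250 bases before to 50 after 1 annotated start per gene and are written in the gene's own direction. For Tnf and Ltb that start is the 5′ end of the RefSeq gene given above. For Lta it is base 35205351, which lies 227 bases inside the RefSeq gene, so most of the Lta window falls within that gene. Capitals mark GGAAA on either strand and the NF-kB consensus.
Tnf, chr17:35201958-35202257, minus strand: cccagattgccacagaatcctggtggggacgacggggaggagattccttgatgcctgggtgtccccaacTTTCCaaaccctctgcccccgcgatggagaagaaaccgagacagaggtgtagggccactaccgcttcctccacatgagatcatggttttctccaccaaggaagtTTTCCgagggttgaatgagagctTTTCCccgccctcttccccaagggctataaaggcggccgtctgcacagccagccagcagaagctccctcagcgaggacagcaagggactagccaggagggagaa
Lta, chr17:35205302-35205601, minus strand: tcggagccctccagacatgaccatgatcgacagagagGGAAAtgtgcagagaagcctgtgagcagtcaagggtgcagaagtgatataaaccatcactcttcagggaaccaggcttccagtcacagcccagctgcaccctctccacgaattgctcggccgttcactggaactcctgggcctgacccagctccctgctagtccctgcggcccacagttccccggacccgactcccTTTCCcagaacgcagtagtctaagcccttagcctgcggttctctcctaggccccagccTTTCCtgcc
Ltb, chr17:35194257-35194556, plus strand: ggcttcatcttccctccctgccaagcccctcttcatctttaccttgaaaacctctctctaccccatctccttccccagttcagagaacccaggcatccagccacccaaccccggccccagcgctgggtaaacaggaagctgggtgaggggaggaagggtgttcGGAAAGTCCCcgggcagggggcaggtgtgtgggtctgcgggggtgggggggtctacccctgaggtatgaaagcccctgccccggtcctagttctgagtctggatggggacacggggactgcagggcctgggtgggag

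Of the 8 ligands, 7 matched an entry of the promoter table, Cd40lg being the exception. The start used for Tnfsf8 likewise lies 224 bases inside its RefSeq gene. Ltb alone among the 7 held an NF-kB consensus match, on the minus strand 87 bases before the start, where its first letters also read GGAAA on the plus strand. That motif is found in 8.46% of the 32851 promoters of the same length and in 10.3% of the 13793 that belong to measured genes. GGAAA, the core letters bound by NFAT factors, was present in all 7, with 3 matches each in Tnf and Lta, 1 in Ltb and 4 in Tnfsf14. GGAAA occurs in 61.3% of all promoters and in 59.2% of those of measured genes. TGANTCA, the AP-1 consensus, was found in Tnfsf14 alone, 160 bases before the start. It occurs in 7.81% of all promoters and in 5.55% of those of measured genes. TATAAA was found 29 bases before the start in Tnf, 32 before it on the minus strand in Tnfsf11 and 167 before it in Lta. TATAAA occurs in 13.6% of all promoters and in 7.75% of those of measured genes. These matches describe letters in a window and say nothing of binding. Their part in the ligand differences was not tested.

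The 3′ UTRs differ as well, and their part in the ligand differences was not tested. TTATTTATT, the AU-rich nonamer written as DNA, occurs 5 times in the 764-base 3′ UTR of Tnf, once in the 572-base 3′ UTR of Lta and in none of the other 6 ligands' 3′ UTRs (GENCODE vM21, the transcript chosen per gene). Over 13133 measured genes with a 3′ UTR, 7.95% held the nonamer and 0.655% held it at least 3 times. The stretches below hold 4 of the Tnf copies, which overlap, and the single Lta copy. Capitals mark the nonamer.
Tnf 3′ UTR bases 435 to 464: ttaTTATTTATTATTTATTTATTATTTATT
Lta 3′ UTR bases 308 to 337: gagagaaaagttaagTTATTTATTtataga

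Before the ligands are taken one by one, the libraries were checked against their labels. Il21, a cytokine of TFH cells, lay between 9.58 and 10.40 in TFH libraries and between 7.31 and 8.19 in naive libraries. Cxcr5, whose protein was a sort marker, lay between 10.85 and 11.56 in TFH libraries and between 11.56 and 12.45 in naive libraries, which goes against the label at the transcript level. Pdcd1, which encodes the sort marker PD1, lay between 11.88 and 12.85 in TFH libraries and between 10.80 and 11.97 in naive libraries. These ranges overlap. The 10 TFH markers, summed on the linear scale, came to a log2 level of 14.71 to 15.39 in TFH libraries. In naive libraries the sum was 14.24 to 14.92, again with overlap. Of these 10 TFH markers, 4 were called higher in TFH KO and 5 in TFH WT than in the naive group of the same genotype. Beside this and the marker lists below, 9.12% of all genes were called higher and 10.4% lower in KO, and 12.6% and 13.7% in WT. Markers of 14 B cell genes, summed on the linear scale, came to a log2 level of 16.81 and 15.29 in replicate 2 of TFH KO and TFH WT, 12.77 and 13.00 in replicate 1, and 14.26 to 15.42 in naive libraries, with 0 of the 14 called in either comparison. Of 12 natural killer and CD8 T cell genes, 5 were called lower in TFH KO and 6 in TFH WT, with summed levels of 12.48 to 13.32 in TFH and 13.68 to 14.02 in naive libraries. Of 11 measured myeloid genes, 1 was called lower in TFH KO and 2 in TFH WT, with summed levels of 11.39 to 12.96 in TFH and 13.59 to 15.20 in naive libraries. The 10 T cell genes summed to 17.91 to 18.09 in TFH and 18.16 to 18.27 in naive libraries. With the B cell sum as a covariate, 6 ligands were called in KO and 7 in WT. That covariate is a log2 sum in a linear fit of log2 values, so it does not subtract transcripts of B cells. The part of B, natural killer, CD8 T and myeloid cells in the ligand differences was not tested. In such bulk libraries, fewer cells of a type and less RNA per cell cannot be told apart. Replicate 1 of naive KO stood apart in sex-linked genes, with Xist at 14.61 and Ddx3y at 5.67, against 4.44 to 5.56 and 12.54 to 13.16 in the other 7 libraries. It thus had a female pattern and replicate 2 of naive KO a male one, so these libraries were not repeats of 1 animal. Every comparison with naive KO holds this difference, and its part in the ligand values was not tested.

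**Figure D1:**
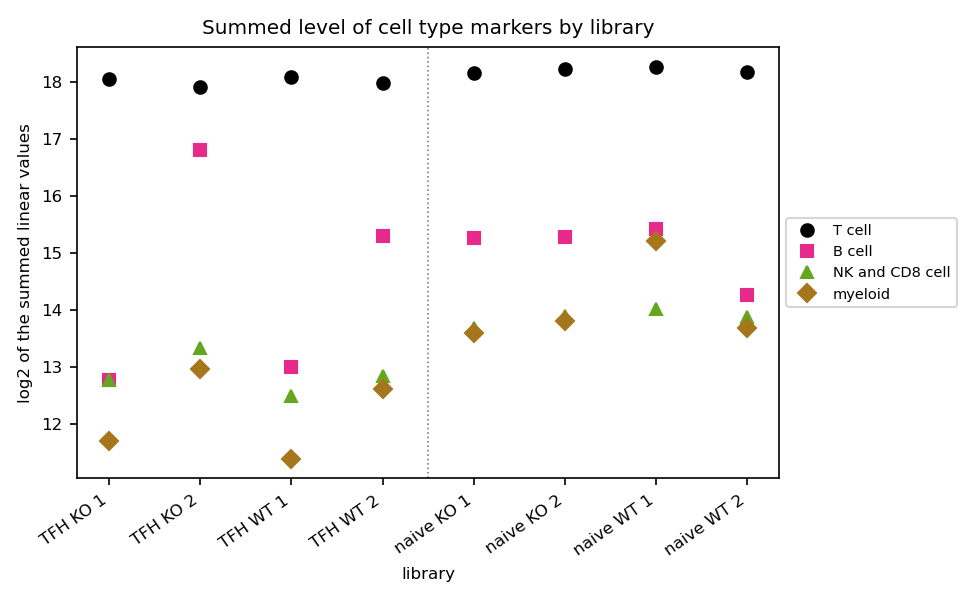
Log2 of the summed linear level (vertical axis) of the T cell, B cell, natural killer/CD8 and myeloid marker lists in each library. TFH KO, TFH WT, naive KO and naive WT run from left to right, with 1 point per library and list. The B cell sum of the TFH libraries runs from 12.77 to 16.81, whereas the myeloid and natural killer/CD8 sums of all 4 TFH libraries lie below those of all 4 naive libraries.

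Tnfsf8 encodes CD30 ligand, which binds CD30 on activated lymphocytes (chr4:63831202-63861508, minus strand). Its level was 12.37 and 12.61 in TFH KO, 13.10 and 12.85 in TFH WT, 11.42 and 11.86 in naive KO, and 11.98 and 11.64 in naive WT. All 4 TFH libraries lay above all 4 naive libraries, and both TFH WT libraries above both TFH KO libraries. The difference of TFH KO from naive KO was 0.85 ± 0.18 (a ratio of 1.80, limma adjusted p = 0.0114). That of TFH WT from naive WT was 1.16 ± 0.18 (a ratio of 2.24, limma adjusted p = 0.00186). The KO call was lost without replicate 2 of TFH KO (0.72, adjusted p = 0.0775).

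Tnfsf11 encodes RANK ligand, the osteoclast differentiation factor that also acts on dendritic cells and in lymph node formation (chr14:78277446-78308043, minus strand). Its level was 10.90 and 10.63 in TFH KO, 11.38 and 11.01 in TFH WT, 10.16 and 10.38 in naive KO, and 10.23 and 9.96 in naive WT. Again the 4 TFH libraries lay above the 4 naive ones, with TFH WT uppermost. TFH KO exceeded naive KO by 0.50 ± 0.16 (a ratio of 1.41, limma adjusted p = 0.048). TFH WT exceeded naive WT by 1.10 ± 0.16 (a ratio of 2.15, limma adjusted p = 0.000556). The KO call was lost without either library of TFH KO, naive KO or naive WT (adjusted p = 0.0532 to 0.229) and under 4 other settings (adjusted p = 0.0505 to 0.108).

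Cd40lg, on the X chromosome (chrX:57212143-57224042, plus strand), varied little. Its level was 12.27 and 12.09 in TFH KO, 12.14 and 12.17 in TFH WT, 11.98 and 11.92 in naive KO, and 11.93 and 11.92 in naive WT. All TFH libraries lay above all naive libraries, by at least 0.11. The difference was 0.23 ± 0.10 in KO (limma adjusted p = 0.133) and 0.23 ± 0.10 in WT (95% interval 0.01 to 0.45, limma adjusted p = 0.112), so neither was called. The highest naive value was that of the library that stood apart in sex-linked genes. Set together in a comparison chosen after these values were seen, all 4 TFH libraries exceeded all 4 naive libraries by 0.23 ± 0.07 (a limma call at an adjusted p of 0.0225, where 38.1% of all genes were called, 18.3% higher and 19.8% lower). That call was lost without the trend (adjusted p = 0.0522) and without most single libraries (adjusted p up to 0.0913).

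Tnf rose in TFH cells of both genotypes. It encodes TNF, an inflammatory cytokine that acts through Tnfrsf1a and Tnfrsf1b. Its level was 11.52 and 11.43 in TFH KO, 11.45 and 11.53 in TFH WT, 10.41 and 11.00 in naive KO, and 10.59 and 10.66 in naive WT. The 4 TFH values lay close together and above every naive value, while the naive KO libraries were the most spread. The lowest value, 10.41, was in replicate 1 of naive KO, the library that stood apart in sex-linked genes. The differences were 0.77 ± 0.16 in KO (a ratio of 1.70, limma adjusted p = 0.00792) and 0.87 ± 0.16 in WT (a ratio of 1.82, limma adjusted p = 0.0032). In KO the difference was 0.48 without that library (adjusted p = 0.028), and the call was lost without replicate 1 of TFH KO (adjusted p = 0.0501).

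Lta, the neighbour of Tnf, encodes lymphotoxin alpha, which is secreted as a homotrimer or held at the membrane with lymphotoxin beta. Its level was 10.26 and 10.01 in TFH KO, 9.78 and 9.91 in TFH WT, 10.42 and 10.63 in naive KO, and 10.34 and 10.52 in naive WT. TFH WT was lowest, TFH KO next, and every naive library was above every TFH library. In KO the difference was -0.39 ± 0.14 and was not called (limma adjusted p = 0.0683). Lta fell by 0.58 ± 0.14 in TFH WT relative to naive WT (limma adjusted p = 0.00944), a call lost without replicate 1 of TFH WT (adjusted p = 0.0708) or replicate 2 of naive WT (adjusted p = 0.0763).

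Ltb, on the other side of Tnf, encodes the subunit that anchors lymphotoxin to the membrane. Its level was 14.58 and 14.24 in TFH KO, 14.38 and 14.21 in TFH WT, 15.00 and 15.17 in naive KO, and 15.13 and 15.19 in naive WT. The naive libraries were all above the TFH libraries, and within TFH cells the genotypes overlapped. Ltb fell by 0.67 ± 0.13 in TFH KO relative to naive KO (a ratio of 0.627, limma adjusted p = 0.00344) and by 0.87 ± 0.13 in TFH WT relative to naive WT (a ratio of 0.549, limma adjusted p = 0.000556). Neither call was lost when any single library was omitted. B cells also express Ltb. With the B cell sum as a covariate its difference was -0.71 in KO (limma adjusted p = 0.000597) and -0.92 in WT (limma adjusted p = 9.55e-05). This fit does not subtract the Ltb transcripts of B cells, so their part in the Ltb difference was not tested.

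Within the cluster, the distance between Tnf and its neighbours therefore separated TFH from naive libraries. Tnf minus Lta, centred on its own mean over the 8 libraries, was 0.42 and 0.58 in TFH KO, 0.83 and 0.78 in TFH WT, -0.84 and -0.47 in naive KO, and -0.59 and -0.70 in naive WT. Tnf minus Ltb was 0.60 and 0.85 in TFH KO, 0.73 and 0.99 in TFH WT, -0.92 and -0.51 in naive KO, and -0.87 in both naive WT libraries. Both gaps were positive in every TFH library and negative in every naive library. They are given as a description without a test.

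**Figure D2:**
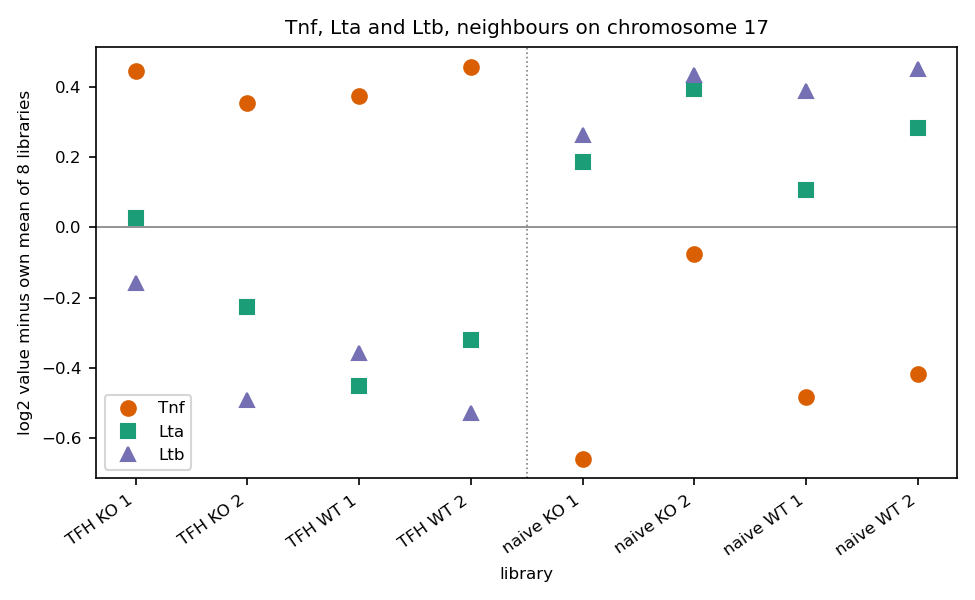
Log2 values of Ltb, Tnf and Lta, each centred on its own mean over the 8 libraries (vertical axis), for the libraries of TFH KO, TFH WT, naive KO and naive WT from left to right. Tnf lies above Lta and Ltb in all 4 TFH libraries and below them in all 4 naive libraries.

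Tnfsf14 encodes LIGHT, which binds Tnfrsf14 and the lymphotoxin beta receptor (chr17:57189474-57194181, minus strand, far from the Tnf cluster). Its level was 9.80 and 9.18 in TFH KO, 9.82 and 9.62 in TFH WT, 10.33 and 10.74 in naive KO, and 10.71 and 10.27 in naive WT. Every TFH library was below every naive library, and the SE of its differences was the largest among the 8 ligands. The difference was -1.05 ± 0.24 in KO (a ratio of 0.484, limma adjusted p = 0.0191) and -0.76 ± 0.24 in WT (a ratio of 0.589, limma adjusted p = 0.0498). The WT call was lost without the trend (adjusted p = 0.0701), without either TFH WT library (adjusted p = 0.121 and 0.222) or without replicate 1 of naive WT (adjusted p = 0.225). The KO call was lost without replicate 2 of TFH KO (adjusted p = 0.0729) or replicate 2 of naive KO (adjusted p = 0.0984).

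Fasl encodes Fas ligand (chr1:161780691-161788495, minus strand). Its level was 10.07 and 9.84 in TFH KO, 9.56 and 9.61 in TFH WT, 9.95 and 10.07 in naive KO, and 10.06 and 10.00 in naive WT. TFH WT libraries were the lowest of the 8, and TFH KO overlapped the naive groups. TFH KO differed from naive KO by -0.05 ± 0.13 (95% interval -0.34 to 0.24, limma adjusted p = 0.821). Fasl fell by 0.44 ± 0.13 in TFH WT relative to naive WT (limma adjusted p = 0.0281), a call lost when any 1 of the 4 libraries compared was left out (adjusted p = 0.0789 to 0.138). Natural killer and CD8 T cells also express Fasl, and their summed markers were lower in TFH libraries, as given above. Their part in the Fasl difference was not tested.

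**Figure D3:**
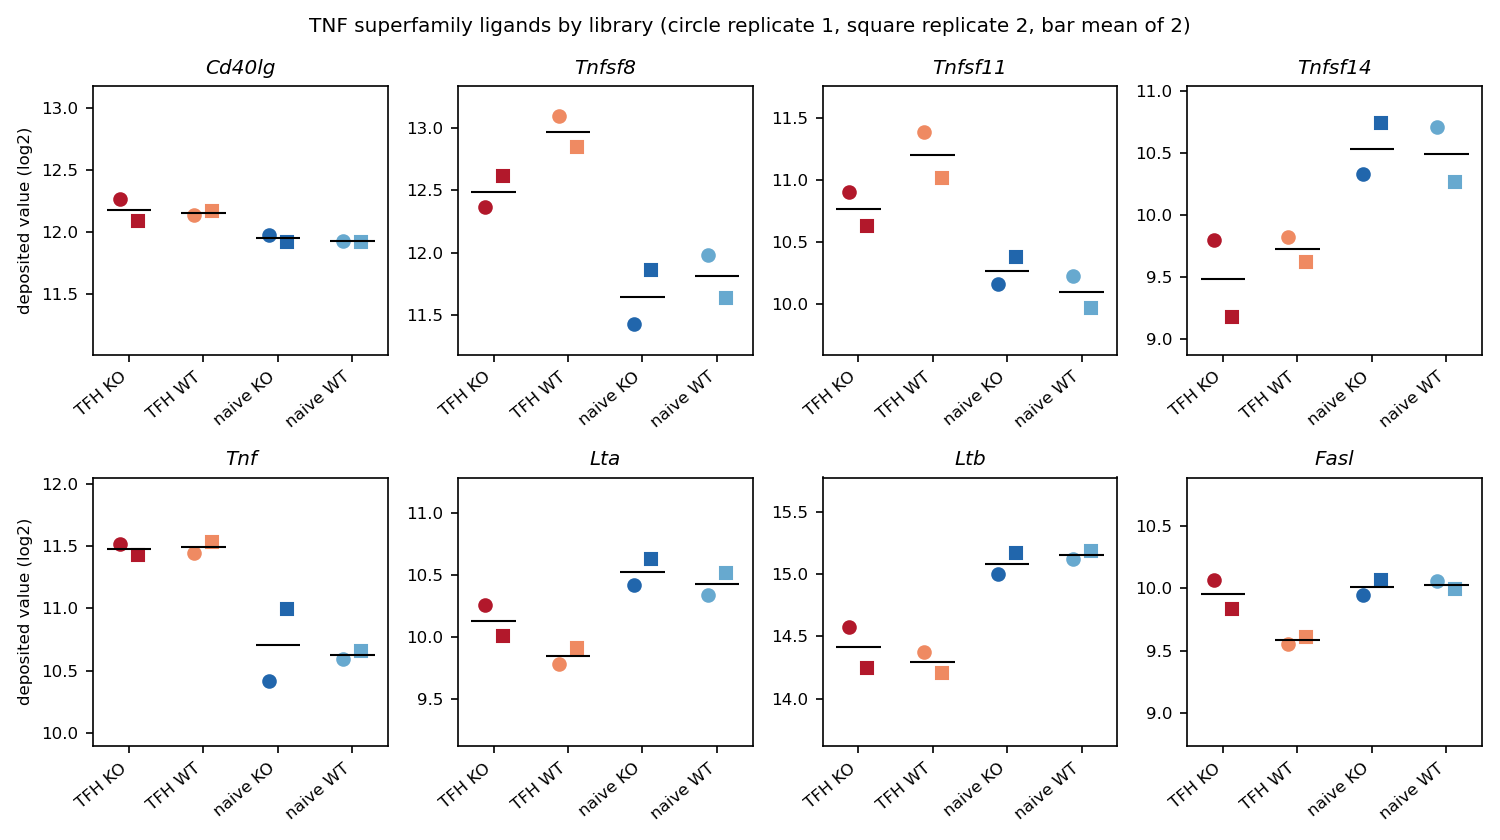
Deposited log2 value of each of the 8 ligands (vertical axis of each panel) in TFH KO, TFH WT, naive KO and naive WT from left to right, with 1 point per library and a bar at each group mean. Tnfsf8, Tnfsf11, Tnf and Cd40lg are higher in all 4 TFH libraries than in any naive library, Tnfsf14, Lta and Ltb are lower, and Fasl overlaps.

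Within KO, both TFH libraries lay above both naive libraries for 4 ligands and below them for 3, where 58.2% of all genes had no overlap, 27.6% higher and 30.6% lower. Within WT this held for 4 ligands above and 4 below, where 65% of all genes had no overlap, 33.1% higher and 32% lower. Across all 8 libraries, 4 ligands lay higher in every TFH library than in every naive library and 3 lay lower. Over all genes, 38.5% had no overlap between the 4 TFH and 4 naive libraries, 18.2% higher and 20.3% lower. Fasl was the ligand whose groups overlapped.

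**Figure D4:**
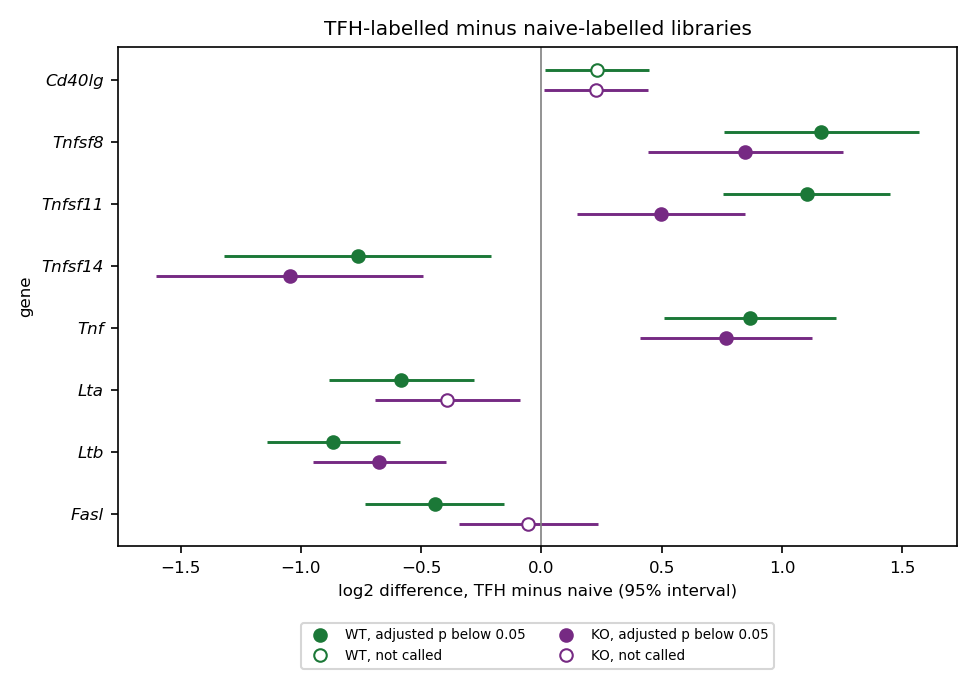
Log2 difference of TFH from naive cells (horizontal axis) with its 95% interval for each ligand, in KO and in WT. Filled points were called at an adjusted p below 0.05, and the KO values run from 0.85 for Tnfsf8 to -1.05 for Tnfsf14 and the WT values from 1.16 for Tnfsf8 to -0.87 for Ltb.

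The genotype comparison asked whether donor cells lacking C5aR1 differed in these ligands. C5ar1 itself was not analysed here, so no check of the genotype on its own transcript is given. In TFH cells, limma called 0 ligands, and 3 had an unadjusted p below 0.05. Fasl was higher in both TFH KO libraries than in both TFH WT libraries, by 0.37 ± 0.13 (95% interval 0.08 to 0.66; limma adjusted p = 1, against 0.017 before adjustment). Tnfsf8 differed by -0.48 ± 0.18 (95% interval -0.89 to -0.08; limma adjusted p = 1, against 0.025 before adjustment) and Tnfsf11 by -0.43 ± 0.16 (95% interval -0.78 to -0.08; limma adjusted p = 1, against 0.019 before adjustment). Lta was also without overlap, higher in TFH KO by 0.29 ± 0.14 (95% interval -0.02 to 0.59).

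In all, 4 of the 8 ligands had no overlap between TFH KO and TFH WT, 2 in each direction, beside 33% of all genes, 16.5% in each direction. Cd40lg and Tnf were the nearest to each other between the genotypes, with differences of 0.03 ± 0.10 (95% interval -0.19 to 0.24) and -0.02 ± 0.16 (95% interval -0.37 to 0.34). Ltb differed by 0.12 ± 0.13 and Tnfsf14 by -0.24 ± 0.24. The intervals of Ltb and Tnfsf14 also included 0. The smallest two-sided p that an exact permutation test of 2 libraries against 2 can give is 0.33.

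Naive KO and naive WT overlapped for all 8 ligands, whereas 26.4% of all genes had no overlap. Limma called 0 of the 8, with 0 at an unadjusted p below 0.05, and the differences ran from -0.17 ± 0.18 for Tnfsf8 to 0.17 ± 0.16 for Tnfsf11. The median size of the difference was 0.08 over the ligands and 0.09 over all genes, whereas it was 0.26 and 0.10 between the TFH genotypes.

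Whether the step from naive to TFH cells differed between genotypes was tested with the interaction term, in which 0.0142% of all genes were called. Limma called 0 of the 8 ligands, and 1 had an unadjusted p below 0.05. For Tnfsf11 the KO difference was smaller than the WT difference by an interaction of -0.61 ± 0.22 (95% interval -1.10 to -0.11; limma adjusted p = 0.997, against 0.02 before adjustment). The Fasl interaction was 0.39 ± 0.19 (limma adjusted p = 0.997) and that of Lta 0.19 ± 0.20, also not called, so the calls of these 2 ligands in WT alone do not show a difference between genotypes.

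**Figure D5:**
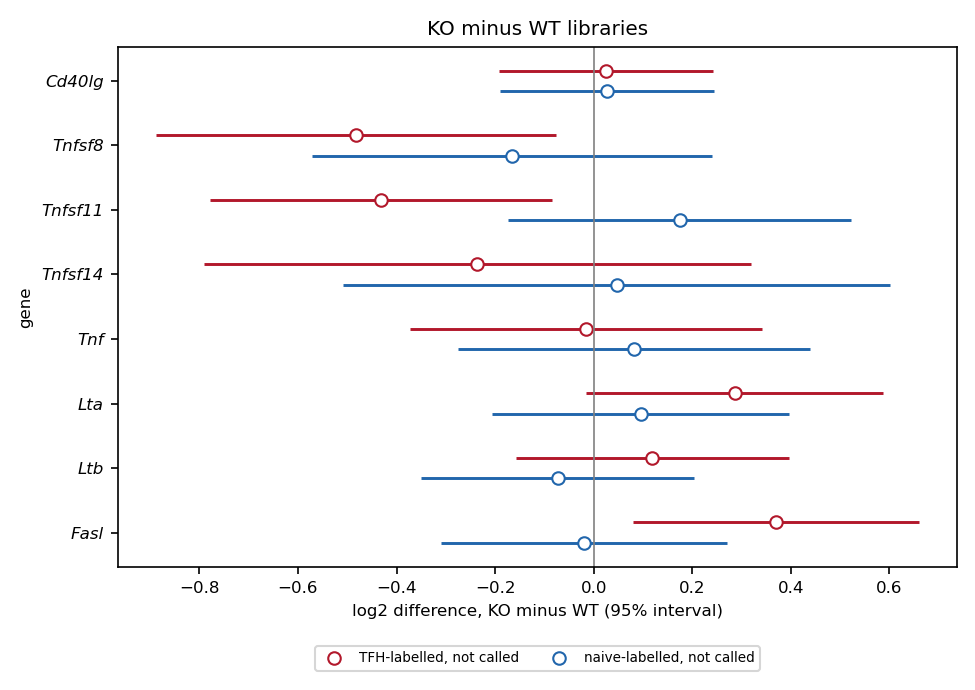
Log2 difference of KO from WT (horizontal axis) with its 95% interval for each ligand, in TFH and in naive cells. No point was called, the TFH intervals of Fasl, Tnfsf8 and Tnfsf11 leave out 0, and every naive interval includes 0.

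A list of 11 genes held receptors of these ligands together with Btla and Cd160, which bind the receptor Tnfrsf14 and none of the 8 ligands. Of its 10 measured genes, 1 was called higher and 2 lower in TFH KO than in naive KO, where 19.5% of all genes were called. In TFH WT against naive WT none was called higher and 2 lower, where 26.3% of all genes were called. Tnfrsf1a was the receptor of the 8 ligands among these calls, and the others were Btla and Cd160. Tnfrsf1a, the death-domain receptor of TNF and lymphotoxin alpha, was 11.10 and 11.05 in TFH KO, 10.93 and 10.91 in TFH WT, 11.66 and 11.63 in naive KO, and 11.78 and 11.66 in naive WT. It fell by 0.57 ± 0.10 in KO (limma adjusted p = 0.00193) and by 0.80 ± 0.10 in WT (limma adjusted p = 0.000179), in both with every library left out in turn. Cd160, a partner of Tnfrsf14 on lymphocytes, fell by 0.86 ± 0.14 in KO (limma adjusted p = 0.00172) and by 0.65 ± 0.14 in WT (limma adjusted p = 0.00642, lost without replicate 2 of naive WT at 0.0501). Natural killer and CD8 T cells also express Cd160. Btla, an inhibitory partner of Tnfrsf14 that B cells carry as well, was called higher in TFH KO by 0.63 ± 0.19 (limma adjusted p = 0.0479), but 12 of 17 alternatives lost that call (adjusted p up to 0.197). With the B cell sum as a covariate, which does not subtract the Btla transcripts of B cells, the Btla difference was 0.70 (limma adjusted p = 0.000693).

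Of the other TNF superfamily ligands, 5 of 10 listed were measured. In each genotype 1 of the 5 was called, lower in TFH cells, beside 19.5% of all genes called in KO and 26.3% in WT. In WT this was Tnfsf13, which encodes APRIL, a B cell survival factor made largely by myeloid cells. It was 4.52 and 5.68 in TFH KO, 3.33 and 4.27 in TFH WT, 6.12 and 6.10 in naive KO, and 7.49 and 6.22 in naive WT. The highest Tnfsf13 value and the highest myeloid sum (15.20) were both in replicate 1 of naive WT. The part of myeloid cells in the Tnfsf13 difference was not tested. Tnfsf13 fell by 3.05 ± 0.54 in WT (limma adjusted p = 0.00205), but by 0.95 after adding 100 to the linear values, a setting that shrinks low genes. In KO it was Tnfsf10, which encodes the death ligand TRAIL, at -0.36 ± 0.11 (limma adjusted p = 0.0413), a call that 12 of 17 alternatives lost (adjusted p up to 0.223).

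Among 16 measured TNF receptor family genes that do not bind the 8 ligands, 3 were called higher and 3 lower in TFH KO. In TFH WT 3 were called higher and 2 lower. Beside this and the lists below, 9.12% of all genes were called higher and 10.4% lower in KO, and 12.6% and 13.7% in WT. Both directions together made 19.5% in KO and 26.3% in WT. Tnfrsf12a, the receptor of TWEAK, rose by 1.93 in KO (limma adjusted p = 5.32e-05) and by 1.63 ± 0.19 in WT (limma adjusted p = 0.000155). It lay between 9.14 and 9.43 in TFH libraries and between 7.17 and 7.65 in naive libraries, with no overlap. Of 25 adaptors and kinases downstream of the receptors, 5 were called higher and 1 lower in KO, and 5 higher and 4 lower in WT. Traf6 and Traf4, both receptor adaptors, were called higher in each genotype and with every single library left out, by 0.71 and 0.56 in KO and by 0.58 and 0.52 in WT. Of 11 death signalling genes 2 were called higher and 2 lower in KO, and 3 higher and 2 lower in WT. None of 6 measured proteases and cofactors of ligand shedding was called in either genotype.

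Of 12 genes whose proteins bind or degrade mRNA, 4 were called higher and 1 lower in TFH KO, where 19.5% of all genes were called. In TFH WT 3 were called higher and none lower, a share near the 26.3% of all genes. Zfp36, which encodes tristetraprolin, the protein that binds the Tnf nonamers shown above and promotes mRNA decay, was 15.47 and 15.58 in TFH KO, 15.50 and 15.63 in TFH WT, 14.11 and 14.17 in naive KO, and 13.95 and 14.24 in naive WT. It rose by 1.38 ± 0.12 in KO (limma adjusted p = 1.21e-05) and by 1.47 ± 0.12 in WT (limma adjusted p = 6.71e-06). Zc3h12a, which encodes the ribonuclease Regnase-1, rose by 2.48 ± 0.19 in KO (limma adjusted p = 0.000106) and by 1.90 ± 0.19 in WT (limma adjusted p = 0.000345). Tnf, Zfp36 and Zc3h12a were higher in the same TFH libraries, and a link between them was not tested.

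Of 20 transcription factors known to act on these ligand genes or to be induced by T cell receptor signalling, 11 were called higher and none lower in TFH KO, beside 9.12% of all genes called higher, and 13 higher and none lower in TFH WT, beside 12.6%. Nr4a1, an early gene of T cell receptor signalling, was 14.53 and 14.38 in TFH KO, 14.22 and 14.29 in TFH WT, 11.83 and 11.77 in naive KO, and 11.76 and 11.86 in naive WT. It rose by 2.66 ± 0.10 in KO (limma adjusted p = 2.02e-08) and by 2.45 ± 0.10 in WT (limma adjusted p = 5.13e-08). The AP-1 genes Fosl2 and Junb rose by 2.87 and 2.06 in KO and by 2.26 and 2.02 in WT. Not called were 9 of the 20 in KO and 7 in WT, Egr3 among them in both. Egr3 lay between 10.17 and 10.76 in TFH libraries and between 10.49 and 10.77 in naive libraries. Egr2 values overlapped between TFH and naive libraries as well. None of the listed receptors, other ligands, adaptors, decay factors or transcription factors was called between KO and WT in either cell type.

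The genes whose pattern over the 8 libraries lay nearest to each ligand were sought among 13140 genes, by the root mean square (RMS) distance between log2 values centred on each gene's mean. The ligands' own RMS about their mean ran from 0.125 for Cd40lg to 0.559 for Tnfsf8. Nearest to Tnf were Snrpd1 at 0.065, Il15ra at 0.0805 and Susd2 at 0.0815. Nearest to Lta was Sit1 at 0.0474 and to Ltb Cbr1 at 0.0488. Nearest to Tnfsf8 was Reep1 at 0.108, to Tnfsf11 Endod1 at 0.107 and to Tnfsf14 Ctsd at 0.155. Nearest to Cd40lg was Gatad2a at 0.029 and to Fasl Slc25a16 at 0.0568. Between the ligands themselves the smallest distances were 0.145 for Fasl and Lta, 0.185 for Lta and Ltb, and 0.216 for both the pair Tnfsf14 and Ltb and the pair Tnfsf8 and Tnfsf11. These distances describe 8 libraries that share 1 normalization.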

How the data were processed

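Per the labels' protocols, total RNA was made into mRNA libraries and sequenced as single-end reads. Per the submitters' processing notes, BWA and the build mm10 were used; the sources used here do not give versions, the gene counting, its strand setting or the normalization. Deposited by the authors were log2 expression values for 14042 genes in 8 libraries. They run from 1.16 to 19.48, and above the lowest percentile the sorted values of the libraries lie within 0.03 of each other, so they had been quantile normalized. Depth is therefore unknown.

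From these values limma 3.58.1 (R 4.3.3) was fitted with no pseudocount to all genes and all 8 libraries, with 1 mean per group, a trend of variance on level and robust moderation, which left 4 residual degrees of freedom. Adjustment was Benjamini-Hochberg, across the 14042 genes. The alternatives were fits to the compared groups alone, without the trend or the robust option, with array weights, with a pseudocount of 100 on the linear scale, without the lowest 25% of genes, centred on ribosomal protein genes, with a B cell covariate and without single libraries. The comparison of all TFH with all naive libraries was added after values were seen. The ligands and gene lists were chosen with earlier results of these data known. The genes named are the 8 ligands and, per list, called genes with the smallest p, up to 4, of which the text leaves out part for length; the nearest genes are those of smallest RMS distance. Lta and Ltb overlap the miRNA genes Mir6974 and Mir6973a, which were not measured. Gene positions are RefSeq's on GRCm38; each promoter window is placed on the start of the RefSeq promoter table, which lies inside the gene's RefSeq span for Lta and Tnfsf8.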

Additional observations from a re-analysis of the deposited data

How the results depend on the processing

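No paired analysis was possible because the labels carry no replicate numbers; those used here follow accession order. With 2 libraries a group, 1 library often decided a call. Of the 8 ligands, 5 were called in KO and 2 to 5 with 1 library left out; in WT 7 were called, and 4 to 7 with 1 library left out. Without replicate 2 of both TFH groups, which had the higher B cell sums, 1 ligand was called in KO, Tnfsf11, and the KO calls of Tnfsf8, Tnf, Tnfsf14 and Ltb were lost (adjusted p = 0.052 to 0.100). Leaving out a library that is one of a pair assumes that the remaining one varies like the other groups. Tnfsf8, Tnfsf11, Tnf and Ltb kept their WT calls under all 17 alternatives. No ligand was called between genotypes or in the interaction under any alternative. Over all genes, 3694 were called in WT, 1991 to 2388 without TFH WT replicate 1, TFH WT replicate 2 or naive WT replicate 2, and 2104 when both TFH groups lacked replicate 2. In KO 2744 were called. Omitting TFH KO replicate 2 left 1399, omitting naive KO replicate 2 left 1771, and omitting replicate 2 of both TFH groups left 1225. Between TFH genotypes 0 genes were called, 1 with the compared groups only and 2 without naive WT replicate 2. Between naive genotypes 10 were called, and 17 without naive WT replicate 2. In the interaction 2 were called, 0 without the trend, 1 when centred on ribosomal protein genes, and 1 to 7 with 1 library left out.

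Differences near 0 changed sign. Centred on ribosomal protein genes, Fasl was 0.0216 in KO, Tnf 0.0265 between TFH genotypes, Cd40lg -0.00599 between naive genotypes and Cd40lg 0.0737 in the interaction. Without replicate 2 of both TFH groups, Fasl was 0.0614 in KO, Tnf 0.0712 between TFH genotypes and Cd40lg 0.10 in the interaction, which was 0.00442 with the B cell covariate. With 1 library left out, Fasl in KO ranged from -0.17 to 0.0614. Between TFH genotypes the ranges were -0.0647 to 0.11 for Cd40lg, -0.55 to 0.0737 for Tnfsf14, -0.0620 to 0.0295 for Tnf and -0.0490 to 0.29 for Ltb. Between naive genotypes they were -0.00179 to 0.0551 for Cd40lg, -0.38 to 0.0547 for Tnfsf8, -0.17 to 0.27 for Tnfsf14, -0.21 to 0.37 for Tnf, -0.0100 to 0.20 for Lta, -0.16 to 0.0126 for Ltb and -0.0794 to 0.0396 for Fasl. In the interaction they were -0.0913 to 0.0880 for Cd40lg, -0.59 to 0.0272 for Tnfsf14 and -0.39 to 0.19 for Tnf. The cause of these changes was not tested. Lta in KO was called with the B cell covariate (-0.41, adjusted p = 0.0418).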
